A study of Homo sapiens with 21 samples.

Results

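The combined silencing of ARID1A and ARID1B with the hairpin pair shARID1A/B.2.3 was compared with Control by ATAC-Seq, in which a transposase inserts sequencing adapters wherever chromatin is open, so that the reads over a site measure its accessibility. The comparison covered every site of the study's consensus list, 367900 intervals of the human genome (GRCh38), of which 357029 had enough reads to be tested. It used 6 of the 21 libraries: 3 of Control and 3 of shARID1A/B.2.3. All of them came from SK-N-BE(2), an established human neuroblastoma line with MYCN amplification, collected 72 h after transduction with lentiviral shRNAs, Control cells carrying a non-silencing hairpin. The groups set beside the combination were shARID1A.2 and shARID1B.3, each a single silencing with a hairpin of the same number, and shARID1A/B.4.2, the other combination. Because each group is a bulk population of 1 cell line, fewer cells with an open site and less signal in every cell cannot be told apart. The labels do not say whether replicates were separate cultures, so p-values measure the spread between these libraries, which may be technical.

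ARID1A and ARID1B are alternative subunits of BAF, the form of the SWI/SNF machinery that uses ATP to slide or evict nucleosomes, and a single BAF particle holds one or the other. BAF is known mainly for keeping distal enhancers open, where it works beside sequence-specific transcription factors. Neuroblastoma arises from sympathetic precursors of the neural crest, and its cells can move between an adrenergic state, held by factors such as HAND2, GATA3 and ISL1, and a mesenchymal state marked by PRRX1, AP-1 and YAP/TEAD activity. HAND2 and TWIST1 are basic helix-loop-helix proteins that bind E-boxes, GATA3 binds GATA motifs, and ISL1 is a homeodomain protein.

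The central 300 bases of 5 sites are given first because the largest losses of accessibility carried an E-box more often than other sites did. They are written from the plus strand of hg38, and capitals mark matches, on either strand, to the E-box form CAGATG, to the GATA motif AGATAA, to the homeobox motif TAATTA and to the AP-1 motif TGANTCA. FOXD2, RP11-664H17.1 and SLC25A51P1 name the nearest genes of sites that lost almost all accessibility. JUN and ITGB3 name distal sites that were picked for their level and also closed. The nearest gene need not be the one that a site controls.
FOXD2, chr1:47618490-47618789: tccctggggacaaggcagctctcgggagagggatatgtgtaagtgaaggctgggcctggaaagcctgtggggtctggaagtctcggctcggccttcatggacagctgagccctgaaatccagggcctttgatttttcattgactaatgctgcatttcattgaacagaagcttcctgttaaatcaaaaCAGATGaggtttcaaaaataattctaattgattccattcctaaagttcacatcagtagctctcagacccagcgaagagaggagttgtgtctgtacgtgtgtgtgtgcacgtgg
RP11-664H17.1, chr12:19978206-19978505: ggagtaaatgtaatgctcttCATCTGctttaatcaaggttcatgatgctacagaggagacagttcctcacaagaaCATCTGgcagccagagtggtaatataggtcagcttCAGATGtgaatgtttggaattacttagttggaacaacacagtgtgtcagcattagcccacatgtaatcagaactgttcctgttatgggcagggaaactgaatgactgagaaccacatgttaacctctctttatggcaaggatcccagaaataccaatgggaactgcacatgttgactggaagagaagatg
SLC25A51P1, chr6:66429389-66429688: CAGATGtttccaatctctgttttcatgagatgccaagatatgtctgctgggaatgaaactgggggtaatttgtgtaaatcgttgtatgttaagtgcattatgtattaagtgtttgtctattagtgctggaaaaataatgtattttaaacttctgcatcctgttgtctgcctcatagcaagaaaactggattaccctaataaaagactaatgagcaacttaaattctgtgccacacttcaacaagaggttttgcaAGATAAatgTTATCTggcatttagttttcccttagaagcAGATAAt
JUN, chr1:58755264-58755563: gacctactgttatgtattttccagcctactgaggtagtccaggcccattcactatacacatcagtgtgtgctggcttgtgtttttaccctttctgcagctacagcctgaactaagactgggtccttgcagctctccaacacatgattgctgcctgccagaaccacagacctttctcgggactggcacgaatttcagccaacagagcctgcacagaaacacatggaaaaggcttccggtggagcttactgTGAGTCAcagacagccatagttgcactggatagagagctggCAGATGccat
ITGB3, chr17:47275538-47275837: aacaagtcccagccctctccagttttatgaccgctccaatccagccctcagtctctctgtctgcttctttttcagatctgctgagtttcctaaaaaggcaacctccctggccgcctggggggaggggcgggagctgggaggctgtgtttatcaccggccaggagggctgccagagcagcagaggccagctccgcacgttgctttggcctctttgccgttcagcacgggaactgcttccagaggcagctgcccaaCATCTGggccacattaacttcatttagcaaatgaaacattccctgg
The FOXD2 and ITGB3 windows held 1 E-box match each and the RP11-664H17.1 window held 3. The SLC25A51P1 window joined 1 E-box to 3 GATA matches, and the JUN window joined 1 E-box to 1 AP-1 match. A match is a description of these letters and not a bound site.

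Reads in sites ran from 21292613 to 25188802 in the Control libraries and from 22030968 to 40953070 in the shARID1A/B.2.3 libraries. Replicate 2 stood apart in both groups. Its counts differed from those of replicates 1 and 3 by a chi-square per degree of freedom of 1.84 and 2.05 in Control and of 2.51 and 2.23 in the combination, against 1.09 between replicates 1 and 3 of either group. Both replicates 2 also put fewer of their reads into chromosome 2 between 14 and 18 Mb, around the amplified MYCN locus, 4.17% and 4.25% against 4.70% to 4.86%. Counts are therefore given with and without these libraries. Sites within 1 kb of a start site were tested for 6 of the 8 sympathetic markers examined (PHOX2A, HAND2, GATA3, TH, DBH and CHGA), while PTPRC, CD3E, ALB, SOX10 and PECAM1 had none. Among markers of other cell types, 9 had such a site (S100B, CD68, EPCAM, CDH1, CDH5, KDR, MYOD1, DES and ACTA1), with means of 1.29 to 13.4 CPM. Accessibility does not measure knockdown. At the ARID1A promoter, the Control libraries had 7.99, 5.14 and 7.46 CPM (reads relative to the scaled total of the library's tested sites) and the shARID1A/B.2.3 libraries 10.5, 8.27 and 9.94. These groups did not overlap (log2 change 0.47, SE 0.13, edgeR FDR 0.00384), but the call was lost with scaling on promoters (0.33, FDR 0.0241) and with offsets for GC content (0.22, FDR 0.116). At the ARID1B start site, values of 42.6, 37.3 and 42.3 CPM stood beside 49.3, 45.6 and 48.7 CPM, without overlap and short of the threshold (0.23, SE 0.08, FDR 0.0386), though called with total counts (0.28, FDR 6.40e-04).

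Silencing both subunits closed more sites than it opened. Of the 357029 tested sites, 37030 (10.4%) closed and 10172 (2.85%) opened at an FDR under 0.01 by edgeR's quasi-likelihood test, so that 78.5% of the changed sites had lost accessibility. The losses were also the larger changes. Closed sites had a median log2 change of -1.04 and opened sites one of 0.67, around a median of 0.05 for every site tested. A fall of at least 1 on the log2 scale was found at 19716 closed sites and a fall of at least 2 at 1809, whereas 2128 opened sites rose by at least 1 and 44 by at least 2. All 3 combination libraries lay below all 3 Control libraries at 97.1% of closed sites and at 17.0% of all tested sites, and they lay above them at 93.4% of opened sites and 13.0% of all tested sites. Without replicate 2 of both groups, a comparison added after seeing the data, 28883 sites closed and 7177 opened.

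The median closed site had 3.8, 3.49 and 3.73 CPM in the Control libraries and 1.81, 1.65 and 1.85 CPM in the shARID1A/B.2.3 libraries. No Control library came near the combination libraries. These closed sites held 21.7% to 23.3% of all reads in sites in Control and 11.1% to 12.2% with the combination. The median opened site went from 2.5, 2.47 and 2.41 CPM to 3.87, 4.07 and 3.87 CPM. Single silencing lay between the extremes, with 2.40 to 2.52 CPM at closed sites for shARID1A.2 and 2.56 to 2.68 CPM for shARID1B.3, and shARID1A/B.4.2 lay at 2.15 to 2.18 CPM. Because the sites were called in this contrast, the distance between Control and the combination in these medians is a description.

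**Figure D1:**
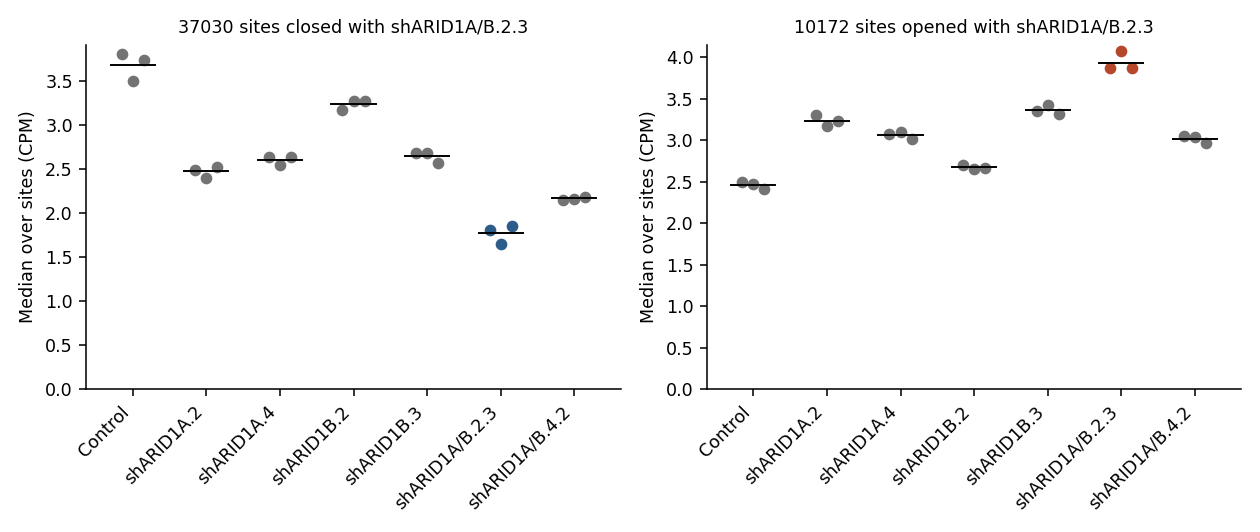
Median accessibility over the sites that closed (left) and the sites that opened (right) with shARID1A/B.2.3, in CPM, with 1 point for each of the 21 libraries and a bar at each group's mean. The combination libraries sit between 1.65 and 1.85 CPM at closed sites, under the shARID1A/B.4.2 libraries at 2.15 to 2.18 CPM, and between 3.87 and 4.07 CPM at opened sites.

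The balance of closing and opening depended on how libraries were scaled. With scaling on promoter sites, 45951 sites closed and 3584 opened, 92.8% of them lower, and the median of all sites moved from 0.05 to -0.10. With total counts only, 34205 closed and 15884 opened (68.3% lower), and with offsets that followed abundance, 34543 closed and 16865 opened (67.2% lower). Closed sites outnumbered opened sites under each of these scalings.

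Opening exceeded closing at start sites, and closing exceeded opening at every greater distance. Within 1 kb of a transcription start site (TSS), 4.52% of tested sites closed and 13.6% opened. At 1 to 3 kb 12.5% closed and 4.64% opened, and from 3 to 100 kb 11.4% to 11.5% closed and 2.11% to 2.55% opened. The closed share was lower again farther out, 9.73% at 100 to 500 kb and 5.38% beyond 500 kb. Introns held 52.3% of all closed sites, and 12.6% of tested intronic sites closed, against 8.99% of intergenic sites. Of 12310 sites annotated as promoters, 632 (5.13%) closed and 1921 (15.6%) opened, with a median log2 change of 0.15. With scaling on promoters, 1190 promoters closed and 821 opened around a median of -0.00. That scaling sets the promoter median near 0 by design, so it cannot decide the direction. More promoters opened than closed with total counts (3546 and 585), trended offsets (2773 and 676) and GC offsets (1320 and 910). The difference between promoters and all sites, 0.10 on the log2 scale, was the same with scaling on promoters and was 0.03 with GC offsets. Leaving out replicate 2 of Control gave 0.05, and leaving out that of the combination gave 0.16. Promoter sites took 19.98% to 20.58% of the reads in Control and 23.37% to 24.02% with the combination.

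Among sites over 3 kb from a TSS, the share that closed rose with the level of the site, as did the reads available to call it. It was 1.94% below 0.5 CPM, 21.7% from 2 to 5 CPM and 44.6% from 5 to 10 CPM. Above 50 CPM, 118 of 247 distal sites opened (47.8%) while 16 closed. The amplified region supplied 86 of these 247 sites and 55 of the openings. This direction depended on the scaling, as counts made after seeing the data show. Of the 247 sites, 51 opened and 24 closed with scaling on promoters, and 24 opened and 65 closed with abundance-trended offsets. Outside the amplified region 63 of 161 opened (39.1%) and 8 closed, against 24 and 14 with scaling on promoters and 21 and 28 with trended offsets. The CTCF motif AGGNGGC was in 50.9% of those 161 sites and in 31.3% of distal sites of 10 to 50 CPM there. Base composition also differed, with a median GC of 60.9% against 51.9%, and its part in this difference was not tested.

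**Figure D2:**
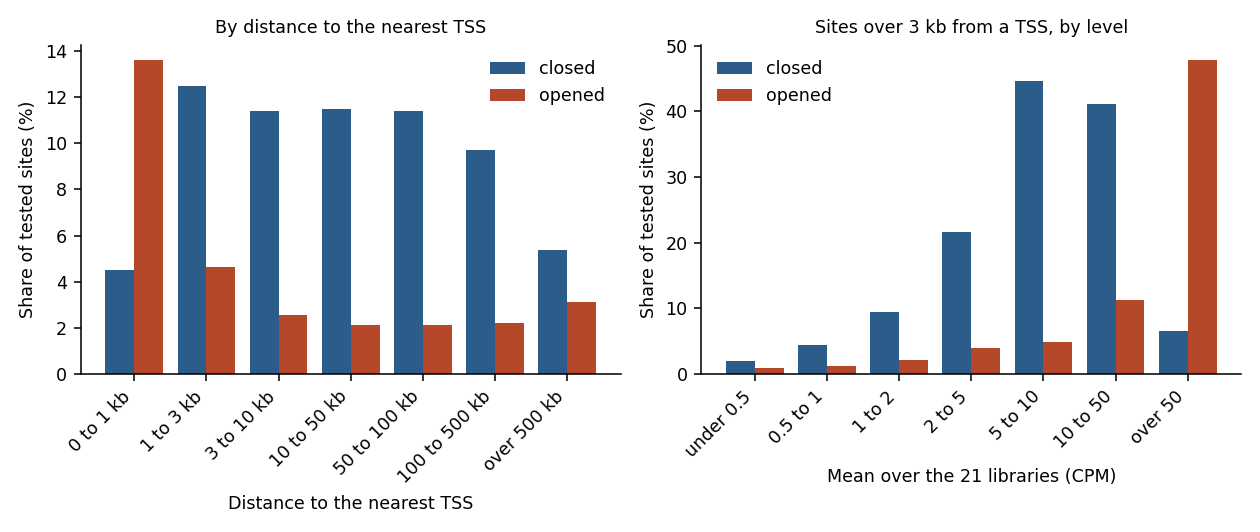
Share of tested sites that closed (blue) or opened (red), in percent, by distance to the nearest TSS (left) and, for sites over 3 kb from a TSS, by mean level over the 21 libraries in CPM (right). Opening exceeds closing within 1 kb of a TSS (13.6% against 4.52%) and among distal sites above 50 CPM (47.8% against 6.48%), and closing exceeds opening in every other class shown. With abundance-trended offsets the distal sites above 50 CPM turn to 65 closed and 24 opened.

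Sequence composition set the closed sites apart. The letters of 15 motifs were searched on both strands of each site's central 300 bases. The E-box CAGATG, which is also read as CATCTG from the other strand, was present in 23.0% of all tested sites, in 32.5% of closed sites and in 50.2% of sites that fell by at least 2 on the log2 scale, but in 16.3% of opened sites. Its share climbed with the size of the loss. Closed sites that fell by under 0.5 held it in 24.1% of cases, those falling 1 to 1.5 in 33.7%, those falling 2 to 2.5 in 49.7% and those falling at least 2.5 in 52.6%. The climb remained at similar base composition: among distal sites of 40 to 45% GC, 23.0% of all sites and 49.2% of the 545 sites with a fall of at least 2 carried it. Over all alternative scalings, filters, tools and left-out libraries, its share at falls of at least 2 stayed between 48.2% and 51.4%.

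The 10 E-box forms, which differ in their 2 central letters, behaved unequally. Between all tested sites and falls of at least 2, CATATG went from 6.27% to 18.6% and CACATG from 21% to 34.5%. CACCTG, the form bound by ZEB and SNAIL repressors, went the other way, from 25.0% to 13.3%. CACGTG, the canonical MYC form, was at 4.15% and 3.21%. GATA matches rose less steeply, from 17.0% of tested sites to 24.4% of closed sites and 26.8% at falls of at least 2, and the homeobox motif went from 7.87% to 13.8% and 18.1%. At 40 to 45% GC the rise was smaller, for GATA from 23.6% of distal sites to 30.8% at falls of at least 2, with 20.6% at the 102 sites with falls of at least 2.5, and for the homeobox motif from 11.1% to 18%. AP-1 was present in 10.9%, 15.2% and 16.3% of these sets, NFI (TTGGCA) in 17.1%, 21.8% and 24.4%, and TEAD (CATTCC) in 16.8%, 17.5% and 19.0%. Thus TEAD letters were nearly as common in all sites as in the closed ones.

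The closed share was higher where matches to the E-box, GATA and homeobox motifs occurred together. Of 78598 distal sites with a mean of at least 2 CPM, 27.5% closed. The closed share was 22.6% among sites with none of the 3 motifs, 30.9% with the E-box alone, 32.7% with GATA alone and 34.9% with the homeobox motif alone. It was 41.3% with E-box and GATA, 41.7% with GATA and homeobox, 47.1% with E-box and homeobox and 52.2% among the 502 sites with all 3. The median log2 change moved in parallel, from -0.03 with none to -0.55 with all 3. Base composition moved with these sets, from a median of 48.0% GC with none to 41.4% with all 3, and over all tested sites 25.7% closed under 35% GC and 5.16% over 60%. Among the 20037 of these distal sites with 40 to 45% GC, a split added after seeing the data, the closed share was 26% with none, 31.7% to 33.7% with 1 motif, 39.7% to 43.2% with 2 and 50.8% among the 189 sites with all 3. Opened sites had a different content. They held the SP motif GGGGCGG in 18.1% of cases against 4.28% of all sites and CTCF letters in 32.0% against 22.0%. Sites that rose by under 0.5, of which 49.1% were promoters, were the richest in both. Among distal sites of 40 to 45% GC, SP was nearly as common in all tested sites (0.724%) as in opened ones (0.824%). There the CTCF letters were in 16.9% of opened and 12.7% of tested sites.

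**Figure D3:**
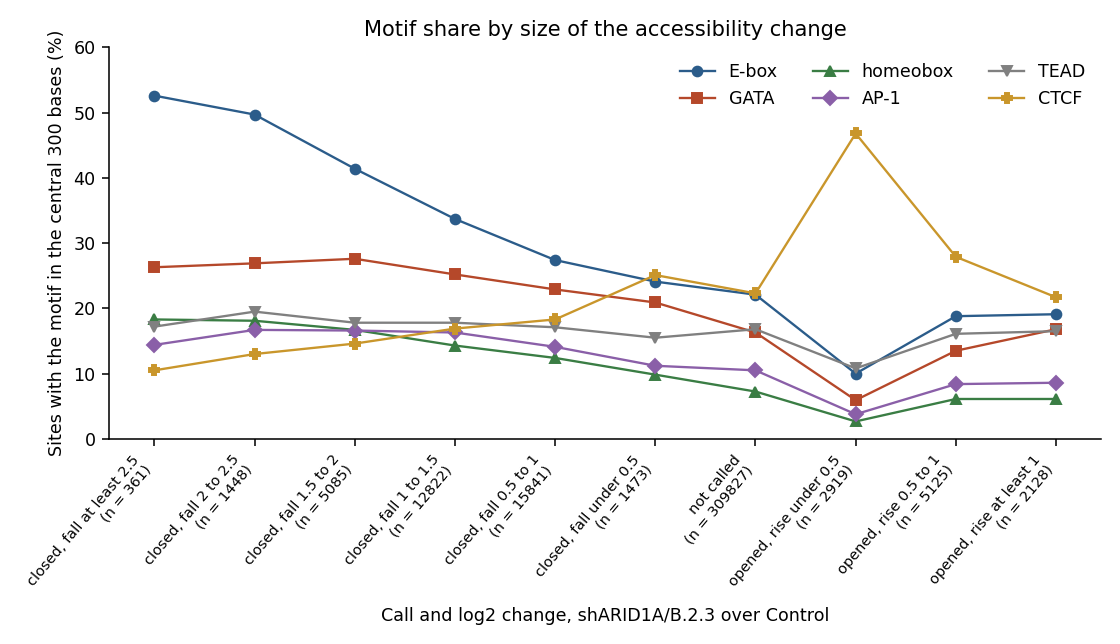
Share of sites whose central 300 bases hold each of 6 motifs, in percent, with sites ordered from the largest losses (left) to the largest gains (right) and the number of sites in each class under the axis. The E-box share falls from 52.6% at the largest losses to 22.1% at sites that were not called, while the TEAD share is 17.2% and 16.8% in the same classes.

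The largest falls were at sites away from annotated start sites. At chr1:47618108-47619173, an intergenic site nearest to FOXD2, which encodes a forkhead transcription factor, Control libraries had 9.82, 9 and 8.70 CPM and shARID1A/B.2.3 libraries 0.854, 0.674 and 0.615. The groups were far apart, and the mean fell 12.8-fold (log2 change -3.67, SE 0.17, edgeR FDR 2.38e-32). The site whose nearest gene is the annexin pseudogene ANXA2P3, chr10:64846076-64847258, went from 15.2, 16.9 and 13.3 CPM to 1.08, 1.81 and 1.19 CPM (log2 change -3.41, SE 0.15, FDR 1.09e-34). Near CRYGS, a lens crystallin gene, chr3:186532306-186533180 went from 17.0, 14.7 and 15.8 CPM to 1.44, 1.37 and 1.80 CPM (log2 change -3.39, SE 0.14, FDR 2.20e-36). In each of these sites every combination library was below every Control library by a wide margin. Falls of -3.37 to -3.23 were found at sites nearest to RP11-664H17.1, TBK1 (a kinase of innate immune signalling), SLC25A51P1, RP11-198M11.2, C15orf41 and DTWD1. Of these 9 sites, 8 were intergenic and 1, RP11-198M11.2, was intronic. All 9 kept their call under every alternative tried.

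Single silencing with either hairpin also lowered these sites, except that shARID1A.2 was not called at the C15orf41 site (log2 change -0.86, SE 0.24, edgeR FDR 0.0118). At the FOXD2 site, shARID1A.2 had 1.95 ± 0.304 CPM and shARID1B.3 2.07 ± 0.540 CPM (SD, n = 3 each), and the combination was lower than both (log2 difference -1.43, edgeR FDR 8.05e-07, and -1.57, FDR 1.97e-09). The ANXA2P3 site followed one hairpin more than the other, with 8.74 ± 0.690 CPM for shARID1A.2 and 2.37 ± 0.129 CPM for shARID1B.3. The C15orf41 site did so even more: shARID1B.3 had 0.228 ± 0.0713 CPM and the combination 0.177 ± 0.109 CPM, a difference that was not detectable at this depth (log2 difference -0.25, SE 0.45, FDR 0.767).

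The largest rises were smaller and started from low levels. The site in intron 2 of MOK, a gene for a kinase of the MAP kinase superfamily, had 1.30, 1.11 and 1.48 CPM in Control and 9.42, 7.90 and 10.6 CPM with the combination. The groups did not overlap, and the mean rose 7.17-fold (log2 change 2.82, SE 0.16, edgeR FDR 1.01e-27). MAOA encodes monoamine oxidase A, which breaks down noradrenaline, dopamine and serotonin. Its site 12962 bases from the TSS, chrX:43641442-43642449, went from 1.11, 1.27 and 1.24 CPM to 5.52, 5.78 and 5.23 CPM (log2 change 2.19, SE 0.18, FDR 1.08e-18). In PCDHAC1, a clustered protocadherin gene, an intronic site went from 0.914, 0.904 and 1.28 CPM to 4.04, 4.46 and 5.10 CPM (log2 change 2.11, SE 0.19, FDR 1.69e-16). Every combination library was above every Control library at these 3 sites. The other 7 of the 10 largest rises, between 2.04 and 2.5, were nearest to LINC00102, LOC101928684, RP11-371M22.1, LOC646588, LOC102724763, MIR3194 and CCDC122. All 10 kept their call under every alternative tried.

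With shARID1B.3 alone, 6 of the 10 sites were also raised. The MOK site had 6.36 ± 0.358 CPM with shARID1B.3 and 1.44 ± 0.384 CPM with the other combination, shARID1A/B.4.2 (SD, n = 3 each). PCDHAC1 had 4.90 ± 0.249 CPM with shARID1B.3, and no difference from the combination was called (log2 difference -0.12, SE 0.14, edgeR FDR 0.616). The LOC646588 site was even higher with shARID1B.3, 5.23 ± 0.0187 CPM, than with the combination, 1.91 ± 0.205 CPM (log2 difference -1.46, FDR 1.45e-12). MAOA was one of the 4 sites not called with shARID1B.3 against Control, beside RP11-371M22.1, LOC102724763 and MIR3194. It had 1.86 ± 0.371 CPM for shARID1A.2 and 1.96 ± 0.451 CPM for shARID1B.3, and the combination exceeded both (log2 differences 1.57, edgeR FDR 1.65e-12, and 1.54, FDR 4.39e-14). The combination also exceeded both at LOC102724763 (0.96, FDR 2.45e-06, and 1.69, FDR 4.28e-15), MOK (1.44, FDR 1.15e-14, and 0.53, FDR 3.14e-04) and LOC101928684 (1.77, FDR 4.58e-11, and 0.56, FDR 0.00949).

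**Figure D4:**
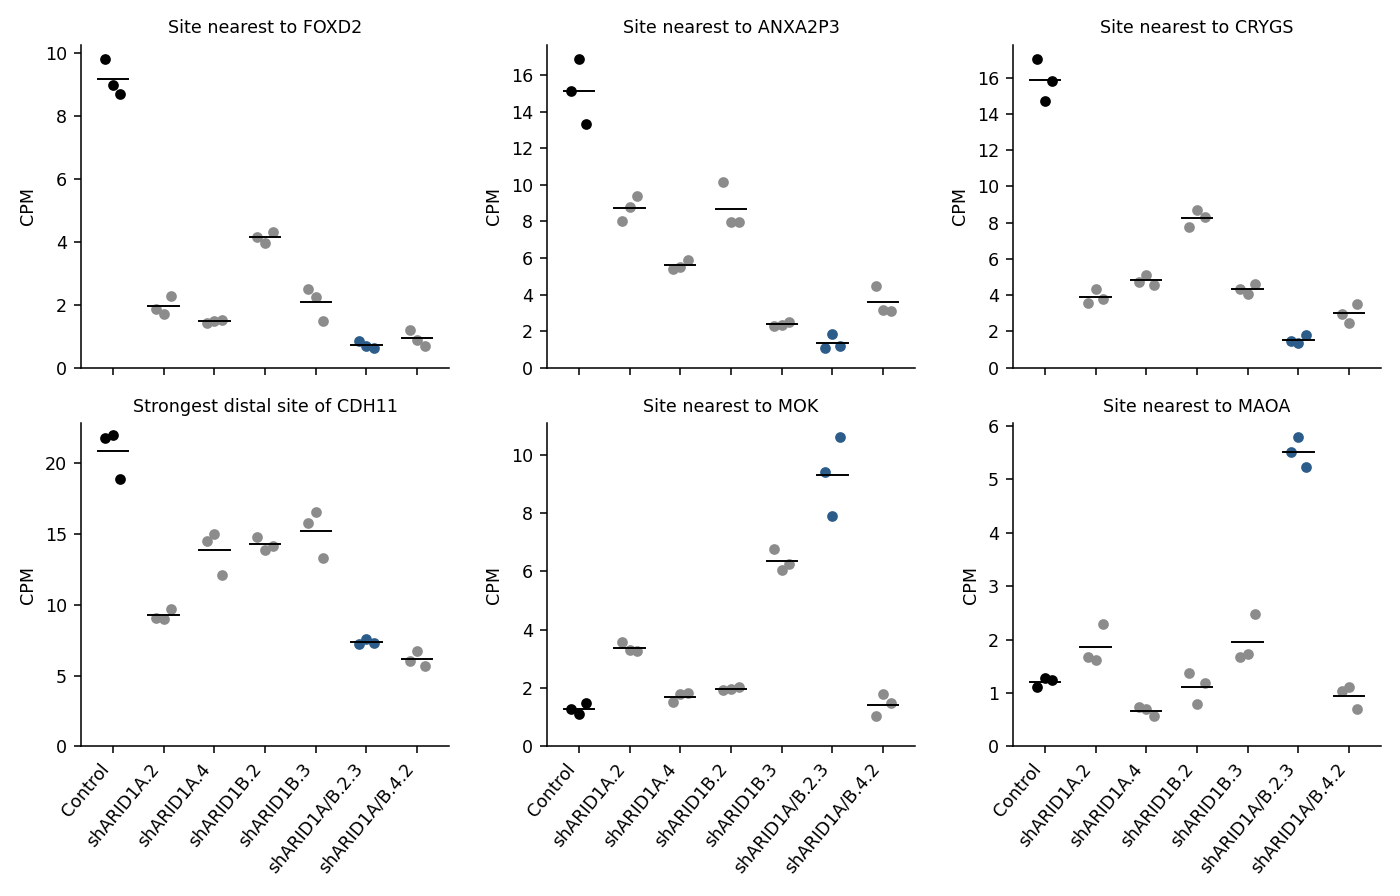
Accessibility in CPM of 6 sites, with 1 point for each library, a bar at the mean of each of the 7 groups, Control in black and shARID1A/B.2.3 in blue. The FOXD2, ANXA2P3, CRYGS and CDH11 sites are lowest or near the lowest with a combination, and the MOK and MAOA sites are highest with shARID1A/B.2.3 (means of 9.31 and 5.51 CPM) and stand at 1.44 and 0.944 CPM with shARID1A/B.4.2.

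Promoters that closed were few, and those given here were chosen after their values were seen. The promoter of XAF1, which encodes an antagonist of the apoptosis inhibitor XIAP, went from 2.17, 1.23 and 2.04 CPM to 0.328, 0.116 and 0.264 CPM (log2 change -3.01, SE 0.32, edgeR FDR 6.34e-13). TAC3 is the gene of the neuropeptide neurokinin B. A site annotated as its promoter, though 7520 bases from the TSS assigned to it, went from 4.81, 3.29 and 5.45 CPM to 0.952, 0.581 and 0.747 CPM (log2 change -2.60, SE 0.19, FDR 1.60e-20). Neither pair of groups overlapped. Between them in size was the fall at LOC285692 (log2 change -2.61, SE 0.15, FDR 3.66e-27). At the opposite end, the promoter of the homeobox gene HOXA4 went from 2.69, 1.93 and 2.33 CPM to 5.22, 5.20 and 5.45 CPM (log2 change 1.2, SE 0.15, FDR 3.03e-10), and that of the zinc finger gene ZNF556 rose by 1.27 (SE 0.13, FDR 8.58e-14). The XAF1, HOXA4 and ZNF556 promoters and the TAC3 site kept their call under each of 17 alternatives.

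Genes that hold the adrenergic state lost distal accessibility. Of 494 tested sites nearest to 21 adrenergic regulators, 91 closed (18.4%, against 10.4% of all tested sites) and 9 opened (1.82%, against 2.85%), with a median log2 change of -0.13. The closed sites were spread over 17 genes, led by EYA1 with 12 of 54 sites. Within 1 kb of their start sites, 0 of 16 sites closed and 4 opened, against 4.52% and 13.6% of all sites that near to a TSS. The losses were therefore counted away from the promoters, where 90 of 469 sites over 3 kb from a TSS closed (19.2%, against 10.6% of all such sites). The list's sites had a median level of 1.44 CPM against 1.02 CPM for all tested sites, and stronger distal sites closed more often up to 10 CPM. The part of level in the closed share was not tested.

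The strongest distal site assigned to MYCN, the amplified oncogene of this line, lies at chr2:15841893-15844585, 97808 bases from the TSS. It went from 23.4, 21.1 and 21.8 CPM to 9.91, 9.25 and 10.2 CPM, without overlap (log2 change -1.18, SE 0.10, edgeR FDR 1.63e-18). Of the 29 sites assigned to MYCN, 4 closed, with a median log2 change of -0.07. The stronger sites of this locus were assigned to its neighbour MYCNOS, at a median of 370 CPM. There 30 of 40 opened, in a direction that changed with the scaling. GATA3, a zinc finger regulator of sympathetic development, had its strongest distal site in an intron of TAF3, where 4.86, 4.19 and 6.09 CPM became 2.66, 2.65 and 3.39 CPM (log2 change -0.83, SE 0.14, FDR 1.54e-06). Both sites were lower in every shARID1A/B.2.3 library than in every Control library. With shARID1A/B.4.2 the MYCN site also fell (-0.77, FDR 3.27e-10), but the GATA3 site was not called (0.13, FDR 0.613). The strongest distal site of ISL1, 5125 bases from its TSS, stood at 24.3, 23.3 and 22.8 against 19.1, 19.2 and 21 CPM and was not called (log2 change -0.25, SE 0.09, edgeR FDR 0.0394), although it closed with scaling on promoters (-0.40, FDR 3.93e-05), trended offsets (-0.26, FDR 0.00647) and GC offsets (-0.28, FDR 0.00634). At the start sites, HAND2 was not called (0.15, FDR 0.184), and neither was GATA3 (-0.25, FDR 0.0648), which closed with scaling on promoters (-0.40, FDR 1.31e-04) and GC offsets (-0.28, FDR 0.00962).

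Genes of catecholamine synthesis and storage had 25 closed sites of 118 (21.2%) and 2 opened, at a median level of 1.80 CPM against 1.02 CPM for all tested sites. CHGA, which encodes the vesicle protein chromogranin A, had 7 of 14 closed and SLC18A1, a vesicular monoamine transporter, 5 of 14. DBH, the enzyme that makes noradrenaline from dopamine, was one of the few list genes whose promoter fell, from 11.4, 8.67 and 10.9 CPM to 6.37, 5.13 and 6.86 CPM without overlap (log2 change -0.77, SE 0.12, edgeR FDR 3.30e-07). TH, the rate-limiting enzyme, was not called at its promoter: 2.84, 2.05 and 2.41 CPM overlapped with 3.12, 2.30 and 3.78 CPM (log2 change 0.30, SE 0.17, FDR 0.246).

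Cell adhesion genes divided by family. Integrins, the receptors that join cells to the matrix, had 55 of 265 sites closed (20.8%) and 7 opened (2.64%), with a median log2 change of -0.12. The study turned to integrins on these samples, so this count is not independent evidence of the direction. ITGA1 had 10 of 22 sites closed, ITGA9 8 of 12 and ITGA6 7 of 12. The strongest distal site of ITGA9, in its intron 4, went from 11.0, 8.75 and 10.1 CPM to 4.30, 3.53 and 4.44 CPM (log2 change -1.30, SE 0.12, edgeR FDR 1.40e-15). That of ITGB3, in intron 2 and printed above, went from 8.08, 7.36 and 9.86 CPM to 4.04, 2.93 and 4.40 CPM (log2 change -1.19, SE 0.14, FDR 1.35e-11). Neither overlapped, whereas the sites nearest to both start sites did overlap and were not called. The distal site of ITGA4 closed (-0.52, SE 0.11, FDR 1.68e-04) while its TSS site opened (0.32, SE 0.09, FDR 0.00747), a call lost in 7 of 17 alternatives, among them scaling on promoters (0.18, FDR 0.171), GC offsets (0.23, FDR 0.0551) and leaving out Control replicate 1 (0.33, FDR 0.0235), Control replicate 3 (0.27, FDR 0.0760) or shARID1A/B.2.3 replicate 2 (0.28, FDR 0.0406).

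Cadherins, which join cells to each other, had 110 of 890 sites closed (12.4%), close to the share of all sites. CDH2, the N-cadherin of neural cells, nevertheless had 19 of 45 closed and CDH11, a mesenchymal cadherin, 16 of 62. The strongest distal site of CDH11, 640403 bases from its TSS, went from 21.8, 22.0 and 18.8 CPM to 7.22, 7.55 and 7.30 CPM, far outside the Control range (log2 change -1.5, SE 0.11, edgeR FDR 5.46e-22). The site picked as the strongest distal site of CDH2 instead rose, from 33.1, 30.3 and 29.3 CPM to 44.1, 46.1 and 42.3 CPM (log2 change 0.52, SE 0.09, FDR 8.74e-07). This site lies in intron 1 of CDH2 and has 68.4% GC. Its distance of 140325 bases was counted to a TSS inside the gene, so it counts as distal by annotation only. Whether it is a promoter was not tested. Genes of collagens, laminins and other matrix proteins had 60 of 692 sites closed (8.67%) and 11 opened (1.59%), both below the shares of all sites.

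Axon guidance genes, whose products steer growing neurites, had 295 of 2029 sites closed (14.5%) and 69 opened (3.40%). The ligand gene EFNA5 had 35 of 134 sites closed and none opened, the semaphorin receptor PLXNA2 32 of 71 and the ligand SEMA6D 27 of 65. NRP2, a semaphorin co-receptor chosen for naming after its count was seen, had 23 of 50. The ephrin receptor gene EPHA3 differed from the ligand EFNA5, with 23 of 255 sites opened and 2 closed.

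Regulators of the mesenchymal state did not show the excess of closed sites. Of 345 sites nearest to 28 such genes, 29 closed (8.41%) and 15 opened (4.35%), with a median of 0.10. TWIST1 was the gene with most losses, 9 of 29 sites. Its own promoter overlapped between groups (42.6, 42.4 and 38.6 against 37.6, 39.7 and 33.7 CPM, log2 change -0.15, edgeR FDR 0.224) but was called closed with scaling on promoters (-0.30, FDR 0.00116), GC offsets (-0.31, FDR 0.00304) and trended offsets (-0.25, FDR 0.00275). At the distal site of RUNX1, a regulator of blood and mesenchymal cells, 3.56, 3.74 and 3.89 CPM became 2.20, 2.07 and 1.71 CPM (log2 change -0.89, SE 0.16, FDR 4.76e-06). The intronic site of PRRX1, a homeobox gene of the mesenchymal state, rose from 3.99, 4.68 and 4.57 CPM to 5.81, 6.55 and 6.51 CPM (log2 change 0.51, SE 0.13, FDR 0.00209), a call that was lost with scaling on promoters (0.36, FDR 0.0470).

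AP-1 and YAP/TEAD genes had 28 of 220 sites closed (12.7%) and 9 opened (4.09%), close to the 10.4% and 2.85% of all tested sites. The strongest distal sites of YAP1, FOSL2 and JUN fell without overlap, while that of TEAD1 was not called (log2 change 0.07, SE 0.09, edgeR FDR 0.624). YAP1 had only 2 of its 47 sites closed, with a median log2 change of 0.15. The YAP1 site in intron 4 went from 7.94, 9.45 and 8.10 CPM to 4.56, 4.86 and 4.53 CPM (log2 change -0.87, SE 0.12, edgeR FDR 1.13e-08). That of FOSL2, an AP-1 subunit gene, went from 27.7, 22.8 and 30.6 CPM to 16.8, 12 and 16.4 CPM (log2 change -0.85, SE 0.10, FDR 3.58e-11). The JUN site printed above went from 1.88, 1.77 and 2.08 CPM to 0.821, 0.534 and 1.01 CPM (log2 change -1.35, SE 0.24, FDR 3.12e-06). TEAD1 had 10 of 31 sites closed, yet its start site opened, from 25.8, 22.8 and 24.2 CPM to 33.2, 33.1 and 33.3 CPM (log2 change 0.45, SE 0.09, FDR 4.53e-05), which was not called with GC offsets (0.19, FDR 0.0915).

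Of the remaining lists, 2 had closed shares below that of all tested sites. Cell cycle genes had 13 of 186 sites closed (6.99%) and 11 opened (5.91%), and ribosomal protein genes 35 of 462 (7.58%) and 16 (3.46%). The BAF family itself had 32 of 270 closed (11.9%, close to the share of all sites) and 14 opened (5.19%), with DPF3, a neural and muscle subunit gene, at 9 of 19 closed. Within 1 kb of the BAF family's start sites 7 of 24 sites opened and 1 closed, against 13.6% and 4.52% of all sites that near to a TSS. One of those that opened was the promoter of SMARCA4, the ATPase subunit gene, at 11.3, 9.57 and 13.7 CPM in Control and 18.5, 15.1 and 18.5 CPM with the combination (log2 change 0.58, SE 0.12, edgeR FDR 4.74e-05). Over 18 settings of the comparison, the closed shares of the adrenergic, catecholamine, integrin, axon guidance and AP-1/TEAD lists were above that of all tested sites in every one, and those of the mesenchymal, matrix, cell cycle and ribosomal lists were not above it in any. Among the 33 genes whose sites were picked without regard to the change, 4 of 33 sites nearest to the TSS closed and 6 opened, and 12 of 30 strongest distal sites closed and 3 opened. These distal sites were picked for their level, and the closed share depended on level. Of all distal sites, 21.7% closed and 3.96% opened at 2 to 5 CPM. The shares were 44.6% and 4.81% at 5 to 10 CPM and 41.2% and 11.2% at 10 to 50 CPM.

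**Figure D5:**
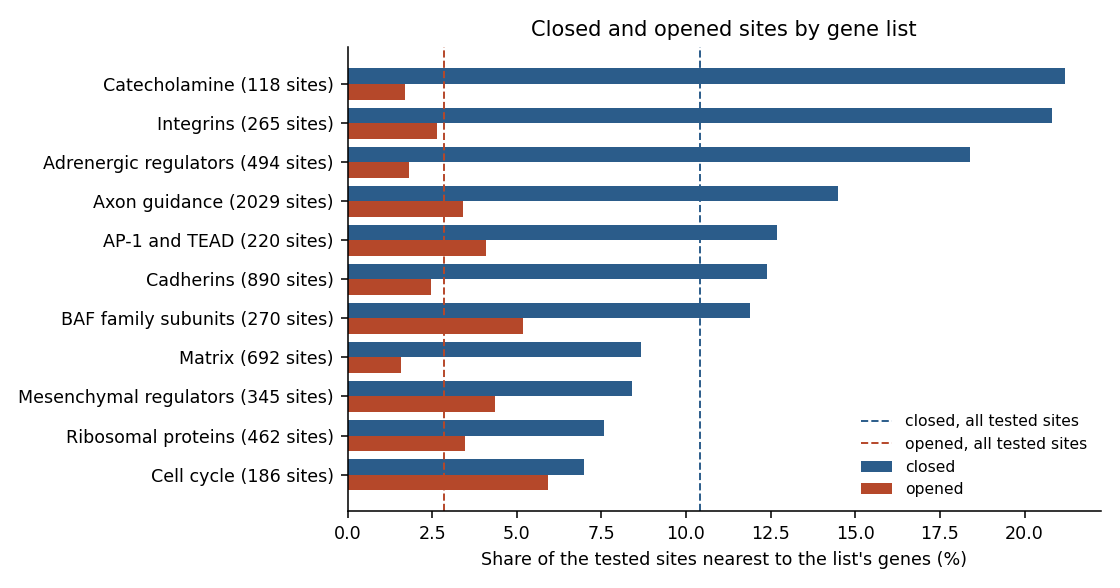
Share of tested sites nearest to the genes of each of 11 lists that closed (blue) or opened (red), in percent, with dashed lines at the shares of all tested sites (10.4% and 2.85%). Catecholamine (21.2%), integrin (20.8%) and adrenergic genes (18.4%) have the highest closed shares and cell cycle genes (6.99%) the lowest.

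Losses clustered along the genome. When a site had closed, the next site within 10 kb had closed in 24.3% of cases, against 9.64% after any tested site, and after an opened site the next had opened in 8.13% against 2.53%. The closed sites were nearest to 12110 genes, of which 2349 had at least 5. Among genes with at least 10 tested sites, the highest closed shares were those of RP5-1033H22.2 (9 of 10), SIAH3 (11 of 13) and TRABD2B, a membrane inhibitor of Wnt ligands (24 of 29, median log2 change -1.65). TMOD3, which caps actin filaments, had 8 of 10 closed and TGFBR3, the TGF-beta co-receptor betaglycan, 10 of 13. LOC101928955, HS1BP3-IT1, LOC101927995, RP11-436K8.1 and MIR4510 completed the 10, at 73.3% to 80.0%.

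Among the genes with the highest opened shares, LOC101929814 had 19 of 24 sites opened, BAGE2 23 of 46, SLC46A3 5 of 10 and LOC100287823 16 of 33. BAGE2 belongs to a multicopy family and LOC100287823 lies on an unlocalized contig, so reads from near-identical copies may be split there and these values are uncertain. MYCNOS, the antisense neighbour of MYCN within the amplified region, had 30 of 40 sites opened and 3 closed at a median level of 370 CPM, with a median log2 change of 0.31. Its direction changed with the scaling: abundance-trended offsets gave 17 closed and 2 opened sites and a median of -0.16, and scaling on promoters left 14 opened. Without replicate 2 of both groups 22 opened.

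Whether the combination went beyond a single silencing was tested directly, with no Control library in the contrast. It was lower than shARID1A.2 at 10428 sites (2.92%) and higher at 1289 (0.361%), and lower than shARID1B.3 at 23592 sites (6.61%) and higher at 3792 (1.06%). Of the 37030 closed sites, 26% were lower than in shARID1A.2 and 42.5% lower than in shARID1B.3, with 4304 lower than in both. Of the opened sites, 7.28% and 10.6% were higher, 242 of them than both. The closed and opened sites were chosen on the same combination libraries, which favours these directions, so the shares are descriptions. YAP1 and ITGB3 illustrate the difference. The YAP1 distal site was not called against shARID1B.3 (log2 difference 0.06, edgeR FDR 0.791), and that of ITGB3 was lower than shARID1A.2 (-0.77, FDR 4.86e-05) without passing the test against shARID1B.3 (-0.36, FDR 0.0848). The DBH promoter was the converse, lower than shARID1B.3 (-0.86, FDR 1.42e-08) but not called against shARID1A.2 (-0.36, FDR 0.0847). The higher counts rest in part on single libraries: without shARID1A.2 replicate 3 and without shARID1A/B.2.3 replicate 2, 729 and 745 sites were higher than shARID1A.2, and without shARID1B.3 replicate 1, replicate 2 and shARID1A/B.2.3 replicate 2, 1671, 1991 and 1361 were higher than shARID1B.3.

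In its median on the log2 scale, the combination was close to the sum of its parts at closed sites and short of it at opened sites. At closed sites the median change was -0.57 with shARID1A.2 and -0.49 with shARID1B.3, and the median of their sum was -1.04, the same as the median of the combination. At opened sites the medians were 0.39 and 0.44, the median sum was 0.84 and that of the combination 0.67. Sites were called in the contrast that contributes here, so these medians are descriptions. By the test of the departure itself, 770 tested sites (0.216%) were lower than the sum and 400 (0.112%) higher, and among closed sites 0.899% and 0.670%. A departure that was not called does not show that the changes added up. The LOC646588 site was one that fell short of the sum (log2 departure -2.32, SE 0.36, edgeR FDR 4.43e-05). Which side was larger changed with the scaling, since scaling on promoters gave 225 lower and 1380 higher. The lower count was 379, 1866 and 301 without shARID1A.2 replicates 1, 2 and 3, 484 and 424 without shARID1B.3 replicates 1 and 2, and 1311 without shARID1A/B.2.3 replicate 1. Sites above the sum numbered 250 and 205 without shARID1A.2 replicates 1 and 3, 186 and 197 without shARID1B.3 replicates 1 and 2, 232 without shARID1A/B.2.3 replicate 2 and 261 without Control replicate 2.

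Both combinations are set against the same Control libraries, so only their direct difference over all tested sites is a test. Closed sites, which were chosen on the shARID1A/B.2.3 libraries, had medians of -1.04 for shARID1A/B.2.3 and -0.76 for shARID1A/B.4.2 on the log2 scale, and opened sites had 0.67 and 0.44. Directly compared, shARID1A/B.2.3 was lower at 13521 tested sites (3.79%) and higher at 5113 (1.43%). Of its closed sites 19.2% were lower and 1.43% higher than with shARID1A/B.4.2, and of its opened sites 15.7% were higher and 1.78% lower, shares whose direction the choice of sites favours. Not every named site differed beyond error. The FOXD2 site had a difference of -0.37 (SE 0.26, edgeR FDR 0.424) and the CDH11 distal site 0.26 (FDR 0.173). The distal sites of GATA3 and MYCN were lower with shARID1A/B.2.3, with differences of -0.96 (FDR 1.41e-07) and -0.41 (FDR 0.00258). That of ISL1 was not called (-0.25, FDR 0.0670). The ITGA4 distal site was instead higher with shARID1A/B.2.3 by 1.10 (FDR 7.64e-11), with changes against Control of -1.62 for shARID1A/B.4.2 and -0.52 for shARID1A/B.2.3. Against Control, shARID1A/B.4.2 was also not called at the DBH promoter (-0.13, FDR 0.570) or the JUN distal site (-0.28, FDR 0.465).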

How the data were processed

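ATAC-Seq counts over consensus sites were analysed in 21 libraries, 7 groups of 3. The deposited tables hold raw read counts per site, which the authors made from their alignments (to GRCh38, per the submitters' processing notes) and annotated with the nearest gene and class by HOMER. None of the sources used here gives the aligner, the peak caller or their versions. The tables also hold the authors' DESeq2 normalized counts, log2 ratios and adjusted p-values, which were not used.

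Counts were fitted with edgeR 4.0.16 in R 4.3.3 (quasi-likelihood, TMM scaling, filterByExpr with a minimum count of 10), with all 7 groups in 1 model and contrasts taken from it. P-values were adjusted by the Benjamini-Hochberg method over the 357029 tested sites, and sites under an FDR of 0.01 were called closed or opened. DESeq2 1.42.0 was an alternative, beside other scalings, GC offsets, no filter, the compared groups alone, the replicate number as a block and each library left out. The step was tested on simulated data. CPM are counts relative to the TMM-scaled total. A site was distal at over 3 kb from the TSS that the annotation assigned to it, which can lie inside a gene. Motif letters were read from hg38.

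Named sites were the 10 largest falls and 10 largest rises with no overlap between groups and at least 1 CPM on average (1 site per gene), and for 33 genes the site nearest to the TSS and the distal site with the highest mean over all libraries. Genes were also named for the highest closed or opened share, and list members for the most changed sites. Others are marked as chosen after their values were seen. The members, gene lists and named genes were chosen with earlier results of these data known. Gene lists and motifs were described by counts, with no test, because sites are not replicates. Some items are not reported here. Depth was 21292613 to 25188802 reads in sites in Control and 22030968 to 40953070 in shARID1A/B.2.3.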

Additional observations from a re-analysis of the deposited data

Results flagged for a closer look

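Among 19 of the largest falls and rises, 15 differed between shARID1A/B.2.3 and shARID1A/B.4.2 when tested directly (edgeR, FDR under 0.01). Each value here is the log2 of shARID1A/B.2.3 over shARID1A/B.4.2. Sites of the 33 genes picked without regard to the change were not in this count, and some also differed. Among them were the ITGA9 distal site (-0.91, FDR 2.97e-08), the DBH promoter (-0.64, FDR 8.81e-05) and the PRRX1 intronic site (0.71, FDR 6.58e-05). Both combinations lowered 6 of the 15 sites, and shARID1A/B.2.3 lowered them more. The differences were -1.33 nearest to ANXA2P3, -0.99 nearest to CRYGS, -1.30 nearest to TBK1, -1.37 nearest to SLC25A51P1, -1.62 nearest to RP11-198M11.2 and -0.94 nearest to DTWD1, with FDR values from 1.04e-10 to 0.0012.

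The other 9 sites were among the largest rises, and shARID1A/B.2.3 was higher at all of them. The differences were 2.68 nearest to MOK, 2.66 nearest to LINC00102, 2.80 nearest to LOC101928684, 1.83 nearest to RP11-371M22.1, 2.54 nearest to MAOA, 1.46 nearest to LOC646588, 2.48 nearest to LOC102724763, 1.78 nearest to PCDHAC1 and 3.08 nearest to CCDC122, with FDR values from 2.22e-25 to 2.59e-06. With shARID1A/B.4.2 the changes against Control at these 9 sites ran from -1.04 at CCDC122 to 0.67 at LOC646588. The sites were picked for their change with shARID1A/B.2.3, so the direction of these differences is not independent of the choice.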

How the results depend on the processing

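Counts are given in the order closed or lower, then opened or higher. Against Control, DESeq2 opened 5679 sites, a fit of the compared groups only 5686, scaling on promoter sites 3584, total counts 15884 and abundance-trended offsets 16865. A limit of 1 on the absolute log2 change left 19716 and 2128, and an FDR under 0.05 opened 23215. The other closed counts were within 1.5 times the reported one. Leaving out 1 library gave 29245 to 34758 closed and 6818 to 10654 opened.

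Against shARID1A.2, the higher count was 754 with DESeq2, 800 with the compared groups only and 2242 with trended offsets. The limit of 1 left 3263 and 318, FDR under 0.05 gave 15759 and 3595, and leaving out 1 library gave 7217 to 9828 and 729 to 1266. Against shARID1B.3, the higher count was 1134 with DESeq2, 7203 with total counts, 6569 with trended offsets and 13204 at FDR under 0.05. The limit of 1 left 9049 and 1105, and leaving out 1 library gave 16360 to 22488 and 1361 to 4625.

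For the departure from the sum, scaling on promoters gave 225 and 1380, GC offsets 1524 and 689, the compared groups only 375 and 152, FDR under 0.05 2914 and 1395 and the limit of 1 461 and 175. No filter gave 1280 lower, total counts 660 higher and trended offsets 910 higher. Leaving out 1 library gave 301 to 1866 and 186 to 360. The cause of these shifts was not tested.

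Deviations of Control and shARID1A/B.2.3 libraries with the same number correlated at 0.10, 0.30 and 0.09, and Control replicate 3 correlated best with replicate 1 of the combination (0.11), so the numbers were not taken as pairs. With the replicate number as a block, 37875 sites closed and 11571 opened in the model of all 7 groups, and 41930 and 18003 with the compared groups only. The block in all 7 groups gave 11170 and 1491 against shARID1A.2, 25108 and 4517 against shARID1B.3, and 1306 and 564 for the departure.

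Of 342 alternative values for 19 of the largest falls and rises, all kept their direction and call. Among 17 called sites of the fixed genes, 12 of 306 values lost the call. Among 6 uncalled ones, 16 of 108 gained a call and none changed sign. Depth limits weak sites: 1.94% of distal sites below 0.5 CPM closed, where few reads were available.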
